A study of Mus musculus with 8 samples.

Results

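The genes described here are 33 antiviral and RNA-sensing genes that type I interferon induces, out of 55573 mouse gene IDs in the count table. They were chosen by name from a list that leaves out guanylate-binding proteins, immunity-related GTPases, interferon regulatory factors and STAT genes. All 33 matched 1 gene ID each, and all 33 were among the 12500 genes with enough counts to be tested. The RNA came from naive CD8+ T cells, resting cytotoxic lymphocytes that have not met antigen, which were taken from spleen and lymph nodes, enriched with a CD8a kit and sorted. The 8 libraries came from male C57BL/6 mice, 5 labelled Furin KO and 3 labelled WT. The comparison asks how the transcriptome of these cells differs without FURIN, a protease that activates precursor proteins in the secretory pathway. Replicate 1 of each group was taken at 7 weeks of age and all other libraries at 8 weeks. The sources used here do not give the allele, the deleted part of the gene or any Cre driver, nor do they state that each library is a separate mouse. p-values therefore measure the spread between these libraries, which may be partly technical.

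Type I interferons bind the IFNAR1 and IFNAR2 receptor chains, whose kinases JAK1 and TYK2 start a signal through STAT2 and IRF9. Their complex binds a short promoter element, the interferon-stimulated response element (ISRE), in front of antiviral genes. The induced proteins sense foreign RNA or DNA (RIG-I, MDA5, ZBP1), bind or degrade viral RNA (IFIT and OAS proteins), trap virus particles (BST2) or modify other proteins (ISG15). Resting T cells are known to hold a basal level of such transcripts in the absence of infection.

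Promoters that hold the element are printed before the values for 7 of the genes, to show its letters and spacing. RefSeq promoter windows on GRCm38.p6, from 250 bases before to 50 bases after each start, were matched for 23 of the 33 genes. An ISRE match was defined as GAAA, any 2 bases and a further GAAA, on either strand, and matches may overlap each other. It was found for 13 of the 23 genes (56.5%), against 1079 of 27025 genes with a window (3.99%). A match is a description of letters and not a shown binding site. In the stretches below, each 80 bases long, 5′ to 3′ on the strand of the gene and upstream of its start, capitals mark the ISRE matches. The Isg15 stretch is chr4:156200855-156200934 (minus strand), that of Ifit1 chr19:34640754-34640833 (plus), that of Ifit3 chr19:34583357-34583436 (plus), that of Ifit1bl1 chr19:34602043-34602122 (minus), that of Oas1a chr5:120907526-120907605 (minus), that of Bst2 chr8:71537567-71537646 (minus) and that of Rsad2 chr12:26456543-26456622 (minus).
Isg15: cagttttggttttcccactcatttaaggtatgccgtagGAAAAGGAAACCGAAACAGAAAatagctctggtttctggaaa
Ifit1: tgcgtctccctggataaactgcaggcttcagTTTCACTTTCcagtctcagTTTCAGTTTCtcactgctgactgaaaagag
Ifit3: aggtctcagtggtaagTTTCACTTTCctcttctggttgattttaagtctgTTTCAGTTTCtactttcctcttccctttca
Ifit1bl1: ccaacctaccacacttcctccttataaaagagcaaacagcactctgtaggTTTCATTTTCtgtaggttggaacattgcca
Oas1a: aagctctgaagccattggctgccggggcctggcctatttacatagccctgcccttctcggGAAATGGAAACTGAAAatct
Bst2: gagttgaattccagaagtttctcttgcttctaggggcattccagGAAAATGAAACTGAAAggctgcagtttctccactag
Rsad2: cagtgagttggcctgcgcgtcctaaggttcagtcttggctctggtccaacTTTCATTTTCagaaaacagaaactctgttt

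The 3 matches of Isg15 overlap in 1 run of repeats, and those of Oas1a and Bst2 overlap in pairs. The 80 bases of Ifit3 are the same, with 0 differences, in its neighbour Ifit3b (chr19:34607753-34607832, plus). Beside the genes printed, Ifit3b, Oas3, Slfn5, Trim30a, Ddx58 and Ifih1 held a match in their windows, the last 2 only after the start. No match was found in the windows of Dtx3l, Herc6, Ifi44, Ifit2, Isg20, Oasl1, Oasl2, Slfn1, Trim25 and Xaf1.

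None of the 33 antiviral genes passed the test of genotype: by edgeR's quasi-likelihood test 0 of 33 had an adjusted p under 0.05, and their lowest adjusted p was 0.9998. Over all 12500 genes 4 passed (0.032%). DESeq2 and limma-voom also called 0 of the 33. At an unadjusted p under 0.05 stood 2 of them (6.06%), Zbp1 and Ifit1bl1, both higher in the libraries labelled Furin KO, against 3.21% of all tested genes. The groups did not overlap at 1 gene (3.03%), Oas1a, against 2.9% of all tested genes. Log2 fold changes, Furin KO minus WT throughout, were above 0 for 19 of the 33 (57.6%, against 49.8% of all tested genes) and below 0 for 14. Their median was 0.10, against -0.00068 over all tested genes, and without Furin KO replicate 4 it was 0.02. The 95% intervals of 25 genes stayed within a 1.5-fold difference in either direction, and those of 30 stayed within a 2-fold difference. Ifi44, Ifit3b and Mx2, all at low levels, had wider ones.

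**Figure D1:**
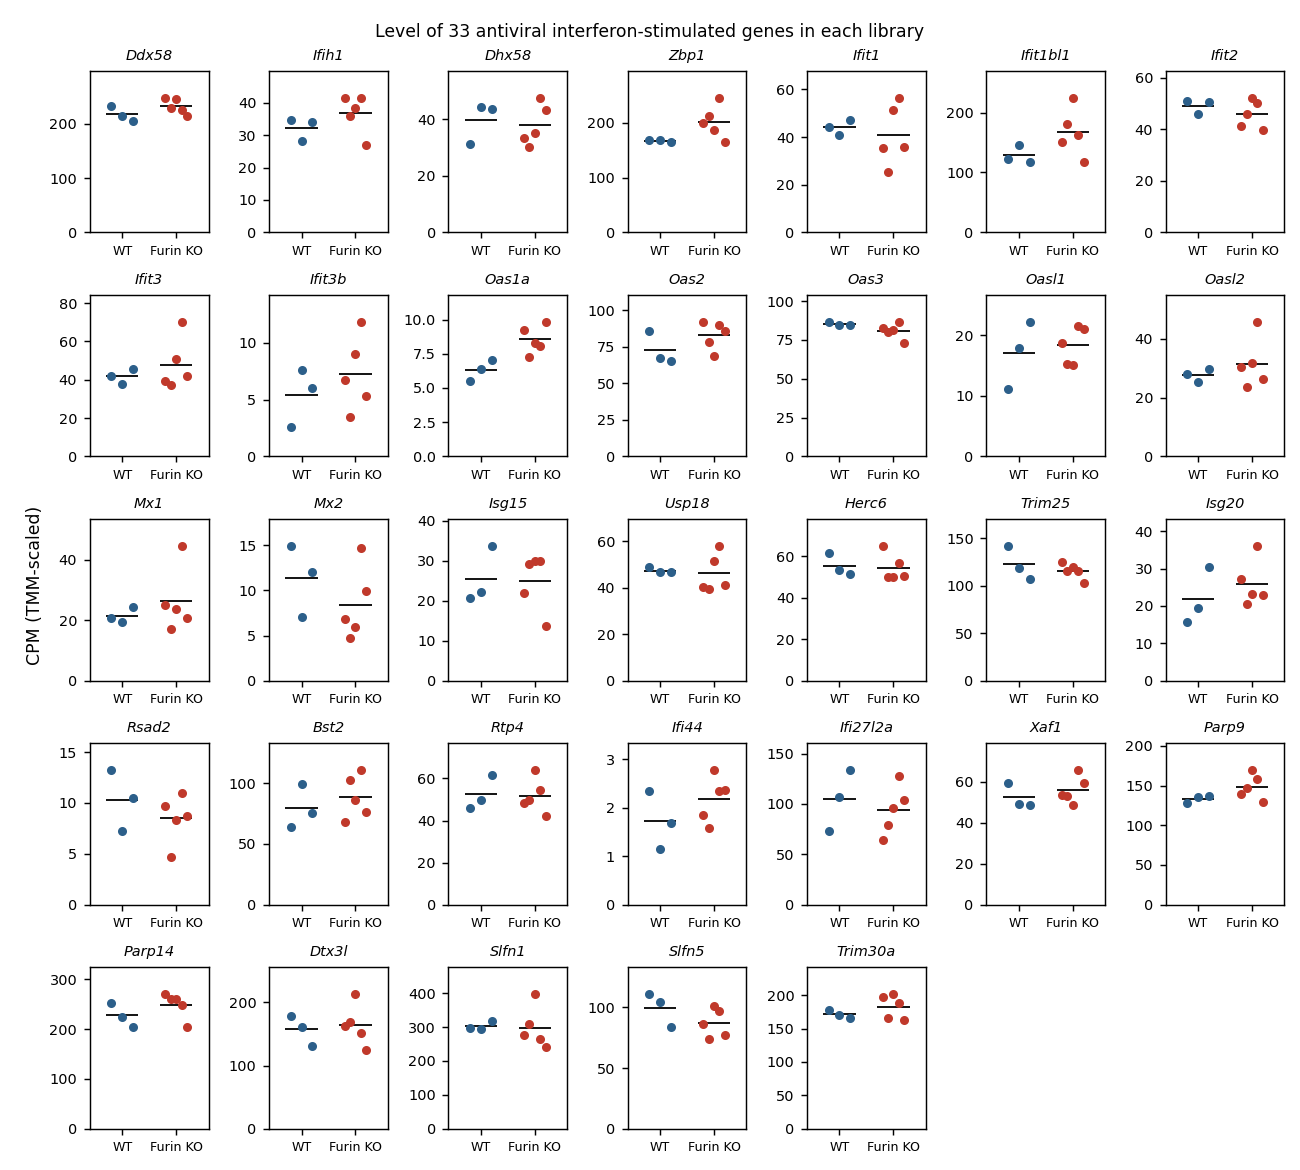
CPM (counts per 1000000 counts of the library, scaled by TMM factors; vertical axes from 0) of each of the 33 genes in each library, with 3 WT points in blue and 5 Furin KO points in red in replicate order and the group mean as a line. At Oas1a alone the 5 Furin KO points lie above all 3 WT points.

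**Figure D2:**
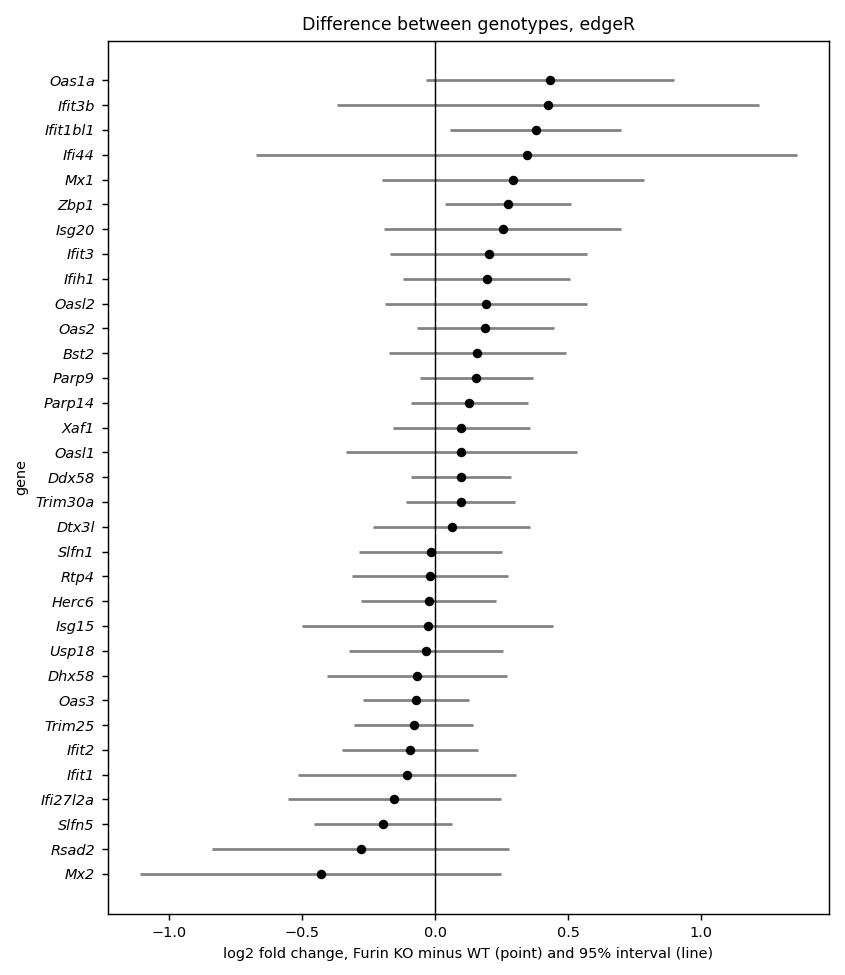
Log2 fold change of Furin KO minus WT (point) with its 95% interval (line) for each of the 33 genes, ordered by value. The values run from -0.43 at Mx2 to 0.43 at Oas1a, and the intervals of Zbp1 and Ifit1bl1 lie above 0 before adjustment over all genes.

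The libraries were checked before the members were read. Total counts ran from 11308220 in Furin KO replicate 5 to 21040431 in Furin KO replicate 4. The Furin count did not differ between the labels beyond its spread, at 69.3 ± 11.8 CPM (mean ± SD, n = 5) against 63.6 ± 5.71 CPM (n = 3; log2 fold change 0.12). A count over the whole gene does not check the labels when the removed exons are not known. Cd8a was between 1456 and 1941 CPM in every library. The 5 neutrophil and 5 red cell markers had 0 counts throughout. Of 8 plasmacytoid dendritic cell markers, a list that shares Bst2 with the antiviral genes, 2 (Siglech and Klk1) were at 0 and 5 reached 1 CPM, with a summed level of 279 to 390.2 CPM in Furin KO and 270.1 to 365 CPM in WT. Most of that sum was Ccr9, at 227 ± 35.9 CPM (mean ± SD, n = 5) and 212 ± 37.0 CPM (n = 3), and Bst2. Of 8 macrophage or monocyte markers 2 (Csf1r and Adgre1) were at 0 and 2 reached 1 CPM (Ly6c2 and Cd68), with sums of 199.6 to 234 and 161 to 237 CPM. Ly6c2 made up most of these sums, at 208 ± 17.2 CPM (n = 5) and 183 ± 39.4 CPM (n = 3). Of 6 NK cell markers 5 stayed under 1 CPM in every library, 2 of them at 0 (Ncr1 and Klra8). The list summed to 34.02 to 51.6 and 39.5 to 40.8 CPM. The 7 markers of conventional dendritic cells, 4 of them at 0, summed to 0.527 to 3.20 and 0.206 to 2.02 CPM. Of 7 B cell markers 5 stayed under 1 CPM in every library, 2 of them at 0 (Ms4a1 and Cd22). The B cell list summed to 19.5 to 28.6 and 20.7 to 28.7 CPM. The 6 CD4 T cell markers summed to 57.7 to 78.1 and 50.9 to 59.7 CPM, and the 10 memory or effector markers to 239 to 305 and 247 to 269 CPM. No listed marker passed the test, and the part of other cells in the results below was not tested. Fos, an immediate early gene, was at 85.8 to 204 CPM in WT replicate 2 and Furin KO replicates 2 and 3 and at 801 to 1075 CPM in the other 5 libraries. In bulk RNA, fewer cells with a transcript and less of it per cell cannot be told apart.

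Interferons themselves were looked for first. The 7 type I and type III ligands looked for (Ifnb1, Ifna1, Ifna2, Ifna4, Ifna5, Ifnl2 and Ifnl3) had 0 counts in all 8 libraries, which allows up to 0.0208 CPM over the 144320747 counts together, counting error only. This bound does not cover reads that match several genes, whose treatment is not known. Ifng, the type II interferon, was at most 0.776 CPM. The receptor chains were present in both groups. Ifnar1 stood at 181 ± 19.6 CPM in Furin KO and 179 ± 17.1 CPM in WT, and Ifnar2 at 84.8 ± 4.68 and 77.9 ± 2.49 CPM. Of the factors that carry the signal, Stat2 was at 132 ± 11.2 and 129.5 ± 17.9 CPM, Irf9 at 174 ± 13.9 and 163 ± 14.7 CPM, and Irf7, an interferon-induced factor that amplifies the response, at 212 ± 38.5 and 211 ± 21.7 CPM.

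Per kilobase of annotated exon, the scale on which levels of different genes can be compared, the 33 genes spread from 0.328 CPM per kilobase at Ifi44 to 211 at Ifi27l2a. Ifi27l2a, a small interferon-induced membrane protein, was followed by Slfn1 at 161, a Schlafen protein of thymocytes and resting T cells, and by Bst2 at 94.5, the membrane tether (tetherin) that holds budding virions on the cell. Ifit1bl1 stood at 67.8 and Zbp1 at 53.5. The lower end held Ifit3b at 3.29, Mx2 at 2.64 and Rsad2 (viperin, which makes a chain-terminating nucleotide) at 2.12. The level of Ifit3b depends on how reads that also match its copy Ifit3 were assigned, which is not known. All 33 had at least 20 counts in every library, and Ifi44, the lowest, had between 22 and 52. Exon lengths are of all annotated isoforms merged, so a gene expressed from a short isoform is understated.

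**Figure D3:**
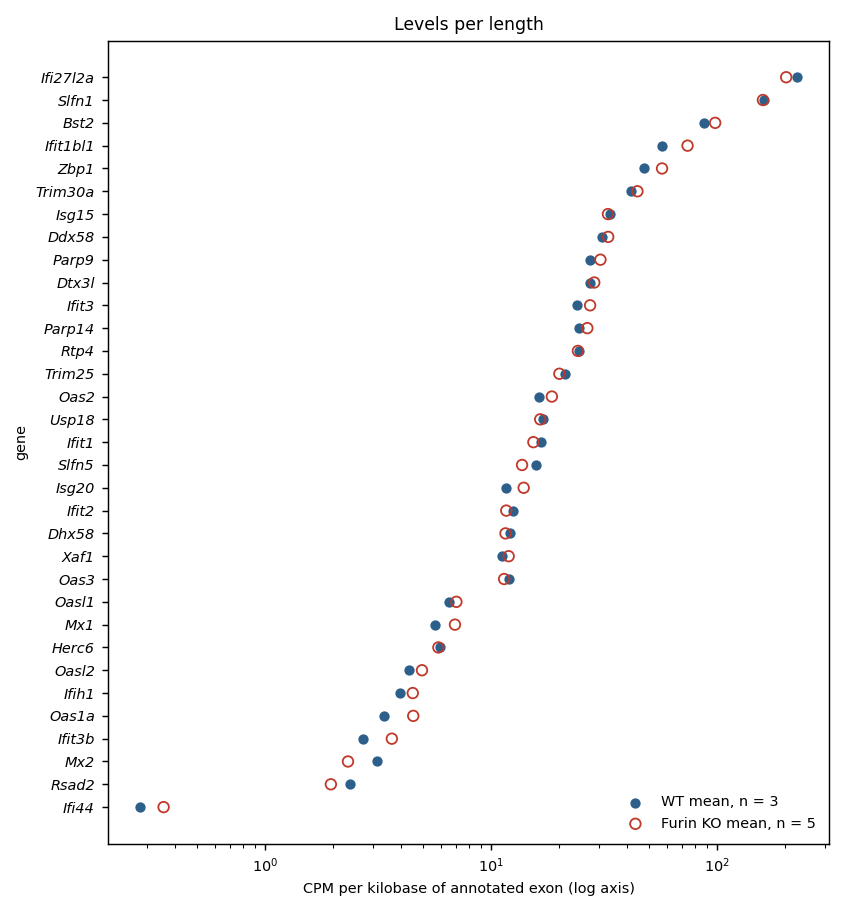
Mean CPM per kilobase of annotated exon (log axis) for the 33 genes, ordered by the mean over 8 libraries, WT as filled blue points (n = 3) and Furin KO as open red circles (n = 5). The circles and points of each gene lie close together next to the span from 0.328 at Ifi44 to 211 at Ifi27l2a.

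Among the 4 nucleic acid sensors, Zbp1 and Ddx58 were the most abundant by count. Zbp1 (ENSMUSG00000027514, GRCm38 chromosome 2, 173206612 to 173218923, minus strand) binds left-handed Z-form RNA and DNA and can start necroptosis. It had 168, 169 and 165 CPM in WT replicates 1 to 3 and 200.1, 213, 187, 246 and 164 CPM in Furin KO replicates 1 to 5, the order used for every gene below. The 3 WT values lay close together (SD 2.30 CPM), 4 Furin KO libraries lay above them, and Furin KO replicate 5 lay just below. Its log2 fold change was 0.27 (95% interval 0.04 to 0.51, edgeR unadjusted p = 0.0261, adjusted p = 0.9998), and the exact two-sided permutation p was 0.125. Its unadjusted edgeR p was not under 0.05 when WT replicate 2 or 3 or Furin KO replicate 2 or 4 was left out, or in the 8-week libraries alone. Ddx58, which encodes RIG-I, the sensor of 5′-triphosphate RNA, had 233, 215 and 206 CPM in WT and 249, 230.2, 246, 226 and 214 CPM in Furin KO (log2 fold change 0.10, 95% interval -0.09 to 0.29). Its groups overlapped, and its levels were among the steadiest here, with the highest library 1.21 times the lowest. Ifih1, the long double-stranded RNA sensor MDA5, had a log2 fold change of 0.19 and Dhx58, the regulator LGP2, one of -0.07, both with overlapping groups.

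The 5 IFIT genes lie within 99.3 kb of chromosome 19, and their products bind viral RNA ends or act with other IFIT proteins. Ifit1bl1 (ENSMUSG00000079339, chromosome 19, 34592891 to 34601956, minus strand), a relative of Ifit1, was by count the highest. It had 123, 146 and 118 CPM in WT and 151, 182, 225, 163 and 118 CPM in Furin KO. Furin KO replicates 1 to 4 lay above all WT libraries and Furin KO replicate 5 lay level with the lowest of them. The log2 fold change was 0.38 (95% interval 0.06 to 0.70, edgeR unadjusted p = 0.0241, adjusted p = 0.9998), with an exact two-sided permutation p of 0.161. The unadjusted edgeR p was not under 0.05 when WT replicate 1 or 3 or Furin KO replicate 3 was left out, or in the 8-week libraries alone. Ifit1, which binds viral RNA without the host cap methylation, had 44.1, 41.0 and 47.2 CPM in WT and 35.4, 25.5, 51.5, 56.6 and 35.8 CPM in Furin KO (log2 fold change -0.10, 95% interval -0.52 to 0.31). The Furin KO libraries lay on both sides of the WT values and spread over 2.22-fold.

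Ifit3, named for its pattern after its values were seen, had 42.2, 37.8 and 45.4 CPM in WT and 39.5, 37.4, 50.8, 70.3 and 41.8 CPM in Furin KO. Its copy Ifit3b had 2.61, 7.62 and 6.02 CPM in WT and 6.69, 3.50, 9.03, 11.9 and 5.36 CPM in Furin KO (log2 fold change 0.42, 95% interval -0.37 to 1.22, and 0.11 without WT replicate 1, 0.18 without Furin KO replicate 4 and 0.75 without WT replicate 2). At both genes Furin KO replicate 4 was the highest library and Furin KO replicate 2 was lower than every other Furin KO library. Of the 50-base words in Ifit3 transcripts 51.2% also occur in Ifit3b, so the split of reads between them is uncertain. Counted as 1 gene, an alternative added after the data were seen, the pair had a log2 fold change of 0.23 (edgeR unadjusted p = 0.22, adjusted p = 0.9998). Ifit2, which restrains certain RNA viruses in neurons, had -0.09 with overlapping groups.

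The OAS proteins make the second messenger that activates RNase L. Oas1a (ENSMUSG00000052776, chromosome 5, 120896256 to 120907521, minus strand), a catalytically active member, was the 1 gene of the 33 at which every Furin KO library exceeded every WT library. It had 5.49, 6.42 and 7.03 CPM in WT and 9.26, 7.23, 8.28, 8.10 and 9.84 CPM in Furin KO, from 80 to 191 counts a library. The lowest Furin KO value, 7.23 CPM, lay just above the highest WT value, 7.03 CPM. The log2 fold change was 0.43 (95% interval -0.03 to 0.90, edgeR unadjusted p = 0.0676, adjusted p = 0.9998), and the exact two-sided permutation p of 0.0179 is the smallest that 56 arrangements allow. Of its 50-base words 57.6% occur in Oas1g, which had 12 counts in all 8 libraries together, at most 7 in 1 library. With Oas1g added, also after the data were seen, the value was 0.39 (edgeR unadjusted p = 0.0908). The other 4 OAS genes had overlapping groups and log2 fold changes from -0.07 at Oas3 to 0.19 at Oas2 and Oasl2.

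The 2 Mx genes had fold changes of opposite sign. Mx1 (ENSMUSG00000000386, chromosome 16, 97447035 to 97462907), a GTPase that blocks influenza virus, is known to carry a deletion in common laboratory strains, C57BL/6 among them, that leaves no working protein. Its transcript had 20.9, 19.4 and 24.2 CPM in WT and 25.2, 17.1, 23.6, 44.6 and 20.7 CPM in Furin KO. Furin KO replicate 4 stood 1.77 times above the next library, and the other 7 libraries were intermixed (log2 fold change 0.29, 95% interval -0.20 to 0.79). Without Furin KO replicate 4 its log2 fold change was 0.014. Mx2, annotated as a polymorphic pseudogene, had 15.0, 7.10 and 12.0 CPM in WT and 6.79, 4.74, 5.93, 14.7 and 9.93 CPM in Furin KO. WT replicates 1 and 3 and Furin KO replicate 4 were its highest libraries, and the log2 fold change of -0.43 (95% interval -1.11 to 0.25) did not pass. Without Furin KO replicate 4 its log2 fold change was -0.74, with an unadjusted edgeR p under 0.05, and without WT replicate 1 it was -0.18.

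The ISG15 system attaches a ubiquitin-like protein to other proteins (Isg15, with the ligases Herc6 and Trim25) and removes it again (Usp18, which also blocks the IFNAR2 receptor chain). All 4 genes had log2 fold changes close to 0, from -0.08 at Trim25 to -0.03 at Herc6, with overlapping groups. Isg15, whose values were chosen for printing after they were seen, had 20.7, 22.2 and 33.7 CPM in WT and 21.9, 29.3, 30.0, 29.9 and 13.5 CPM in Furin KO. Its lowest library was Furin KO replicate 5 and its highest WT replicate 3. The 95% interval of its log2 fold change was -0.50 to 0.44.

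Of the 7 other effectors, 4 had log2 fold changes above 0 and 3 below, and none passed. Rsad2 had 13.2, 7.25 and 10.5 CPM in WT and 9.75, 4.69, 8.33, 11.0 and 8.70 CPM in Furin KO (log2 fold change -0.28, 95% interval -0.84 to 0.28). The groups overlapped, and the highest library was WT replicate 1 and the lowest Furin KO replicate 2. Without WT replicate 1 its log2 fold change was -0.06. Ifi27l2a had 73.0, 106 and 134 CPM in WT and 64.1, 78.9, 95.6, 127 and 104 CPM in Furin KO (log2 fold change -0.16, 95% interval -0.56 to 0.25). In each group its lowest library was replicate 1, the one from mice of 7 weeks. Ifi44, a cytoplasmic protein of less settled function, had 2.33, 1.148 and 1.69 CPM in WT and 1.84, 1.58, 2.78, 2.33 and 2.37 CPM in Furin KO (log2 fold change 0.34, 95% interval -0.67 to 1.36, and 0.12 without WT replicate 2 and 0.62 without WT replicate 1). Bst2 had a log2 fold change of 0.16, Isg20, an exonuclease, one of 0.25, Xaf1, a pro-apoptotic factor, one of 0.10 and Rtp4, a chaperone of membrane receptors, one of -0.02.

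The ADP-ribosyltransferase genes Parp9 and Parp14 and the ubiquitin ligase gene Dtx3l, whose product pairs with PARP9, lie together on chromosome 16 and were all at 124 CPM or more in every library. Parp9 had 128, 136 and 137 CPM in WT and 139.9, 147, 169.8, 158 and 129 CPM in Furin KO (log2 fold change 0.15, 95% interval -0.06 to 0.37). Here 4 Furin KO libraries exceeded WT and Furin KO replicate 5 did not. Parp14 had 253, 225 and 204 CPM in WT and 270.4, 260.2, 260.2, 247 and 205 CPM in Furin KO (log2 fold change 0.13, 95% interval -0.09 to 0.35). Dtx3l had 179, 161 and 132 CPM in WT and 162, 169.5, 213, 151 and 124 CPM in Furin KO (log2 fold change 0.06, 95% interval -0.23 to 0.36). The groups overlapped at both genes. Parp9 (35938470 to 35972605, plus strand) and Dtx3l (35926511 to 35939151, minus strand) are transcribed away from each other and overlap at their starts, and without a stated strand setting reads from the shared stretch cannot be told apart.

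Slfn1, the most abundant of the 33 by count, had 296, 293 and 317 CPM in WT and 277, 309, 397, 265 and 242 CPM in Furin KO (log2 fold change -0.02, 95% interval -0.29 to 0.25). Furin KO replicate 3 was its highest library and of the other 4 Furin KO libraries 3 lay below all WT libraries and 1 among them. Without Furin KO replicate 3 its log2 fold change was -0.14. Slfn5, a Schlafen protein that also acts in the nucleus, had 111, 105 and 83.6 CPM in WT and 86.0, 73.8, 101, 96.8 and 77.3 CPM in Furin KO (log2 fold change -0.20, 95% interval -0.46 to 0.06). Trim30a, an interferon-induced TRIM protein that restrains NF-kB signalling, had 178, 171 and 165 CPM in WT and 197, 166, 202, 188 and 162 CPM in Furin KO (log2 fold change 0.09, 95% interval -0.11 to 0.30). The groups of both genes overlapped.

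Single libraries stood out across many of the antiviral genes. Furin KO replicate 4 was the highest library for 13 of the 33 genes (39.4%) and the lowest for 0. Of all tested genes it was the highest for 9.1% and the lowest for 7.7%. It lay above the gene's own median for 28 of the 33, a count for which no share over all tested genes was computed. The genes that peaked there were Ifih1, Dhx58, Zbp1, Ifit1, Ifit3, Ifit3b, Oas3, Oasl2, Mx1, Usp18, Isg20, Bst2 and Xaf1. Relative to the median of the other 7 libraries, its level was 2.14 times as high for Mx1, 1.97 times for Ifit3b, 1.68 times for Ifit3 and 1.63 times for Oasl2. Irf7, which is no member, was also highest there, at 275 CPM against 178 to 234 CPM elsewhere. In the deposited table the WT columns, with sample numbers 1, 3 and 6, come first. The column of this library, number 7, follows them and precedes the other Furin KO columns, numbers 2, 4, 5 and 8. Its genotype was taken from its label.

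Furin KO replicate 3 was the highest library for another 8 genes (24.2%, against 13.9% of all tested genes): Ifit1bl1, Ifit2, Rtp4, Ifi44, Parp9, Dtx3l, Slfn1 and Trim30a. At the other end, Furin KO replicates 2 and 5 were each the lowest library for 10 genes (30.3%, against 10.9% and 16.5% of all tested genes). Those of replicate 2 included Ifit1, Ifit3, Mx1, Mx2, Usp18 and Rsad2, and those of replicate 5, the library with the fewest counts, Ifih1, Zbp1, Isg15, Trim25 and Slfn1. The median deviation of the 33 genes from their own means, as log2(CPM + 1), was 0.25 in Furin KO replicate 4, 0.12 in replicate 3, 0.0081 in replicate 1, -0.063 in replicate 2 and -0.15 in replicate 5. In the 3 WT libraries it was -0.0039, -0.059 and -0.0096, inside the range of the Furin KO libraries. Over all tested genes the median deviation lay between -0.0040 (Furin KO replicate 3) and 0.0086 (Furin KO replicate 4). Summed over the 33 genes, the level was 2774 ± 263 CPM in Furin KO and 2634 ± 38.2 CPM in WT. These shares are descriptions of 8 libraries, and the part that depth, Fos level or any other library trait has in them was not tested.

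**Figure D4:**
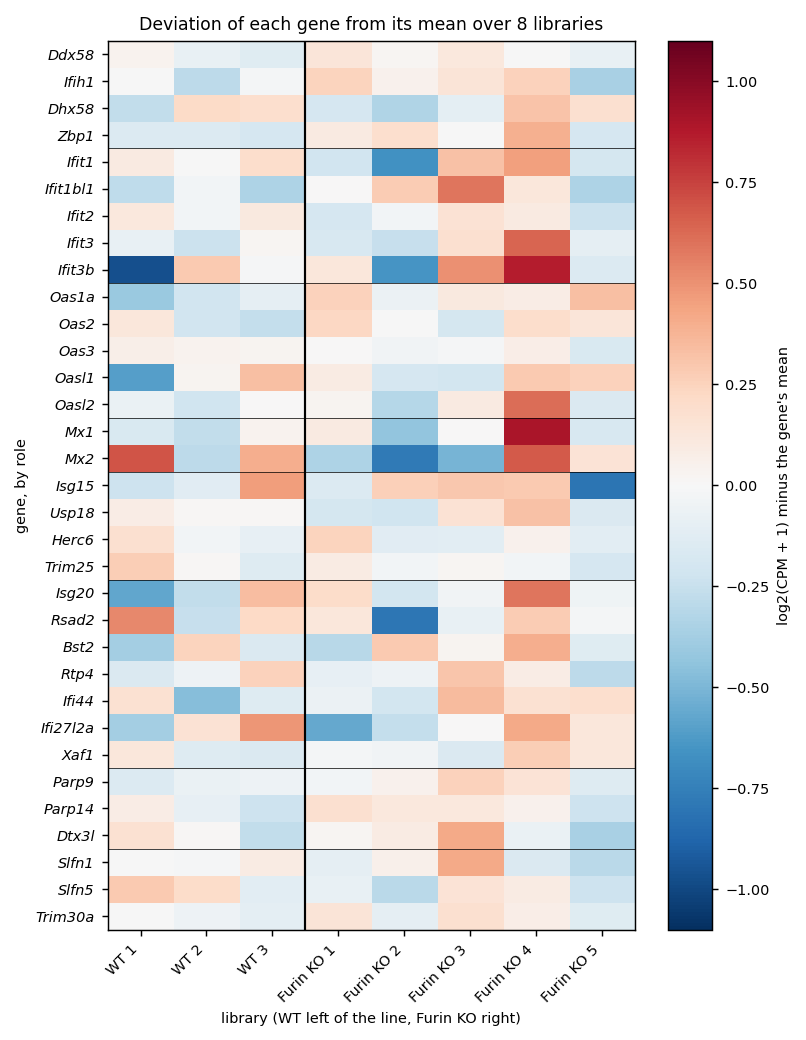
Deviation of each of the 33 genes (rows, by role) from its own mean over the 8 libraries (columns), as log2(CPM + 1), with red above and blue below the mean. The column of Furin KO replicate 4 is mostly red, with a median of 0.25, and that of Furin KO replicate 5 mostly blue, with a median of -0.15.

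**Figure D5:**
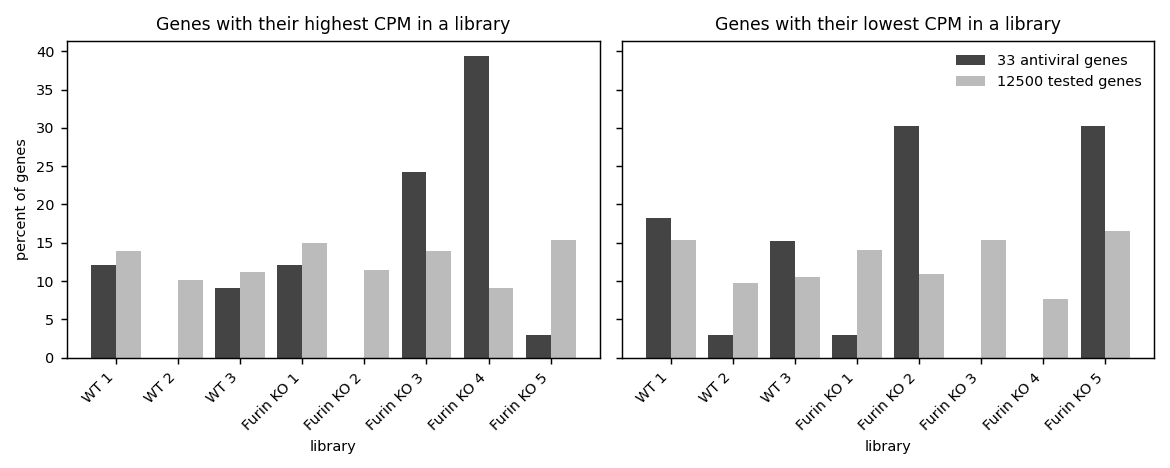
Percent of the 33 antiviral genes (dark bars) and of the 12500 tested genes (light bars) that have their highest (left) or lowest (right) CPM in each library. Furin KO replicate 4 holds the highest value of 39.4% of the antiviral genes and of 9.1% of all tested genes.

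The libraries were also split by sample number into 3 consecutive runs, each with both genotypes, and the members were compared within each. These are runs of numbers only. The labels name no such sets, and whether they match a batch is not known. The second run holds WT replicate 2 and Furin KO replicates 2 and 3, the same libraries that were low in Fos above. In the first run (numbers 1 and 2, n = 1 Furin KO and 1 WT) 19 of the 33 were higher in Furin KO, in the second (3 to 5, n = 2 and 1) 20, and in the third (6 to 8, n = 2 and 1) 23. The median log2 differences were 0.08, 0.10 and 0.06. In all 3 runs 11 genes (33.3%) were higher in Furin KO, namely Ddx58, Ifih1, Zbp1, Ifit1bl1, Oas1a, Oas2, Oasl2, Mx1, Parp9, Parp14 and Trim30a, as were 14.1% of all tested genes. In all 3 runs 4 genes (12.1%) were lower, Ifit1, Oas3, Rsad2 and Ifi27l2a, as were 13.7% of all tested genes. With the run as a factor edgeR still called 0 of the 33 (lowest adjusted p = 0.371), and 5 had an unadjusted p under 0.05: Ifit1bl1, Zbp1, Oas2, Parp14 and Ifi27l2a. The first run holds both libraries from mice of 7 weeks, and its values for a few genes, picked after they were seen, stood at one end in both genotypes. Bst2 had 64.3 CPM in its WT and 67.8 CPM in its Furin KO library, against 75.1 to 111 CPM in the other 6 libraries. Herc6 had 61.7 and 65.0 CPM, against 50.1 to 56.5 CPM, and Trim25 142 and 125 CPM, against 103 to 119 CPM. Age and run cannot be told apart in these 2 libraries.

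Of other genes of the interferon pathway on a list drawn up by role, 100 were tested. The list was made with earlier results of these data known, so the counts below describe it and do not test the pathway. By edgeR 2 passed as higher in Furin KO and 0 as lower, against 0.032% of all tested genes in either direction. Log2 fold changes were above 0 for 78, against 49.8% of all tested genes, with a median of 0.10 against -0.00068. The 2 were Ly6a, a lipid-anchored surface protein, at 75.4 ± 19.5 against 23.4 ± 4.19 CPM (log2 fold change 1.69, edgeR adjusted p = 0.000524), and Socs3, an inhibitor of JAK kinases, at 445 ± 70.0 against 236 ± 8.30 CPM (0.92, edgeR adjusted p = 0.00164). Next by unadjusted p came Iigp1, an immunity-related GTPase, with 39.0 ± 10.7 against 19.0 ± 2.91 CPM, Lgals1, a galectin, with 52.2 ± 6.21 against 70.8 ± 11.0 CPM, Gbp2, a guanylate-binding protein, with 251 ± 59.9 against 182 ± 12.6 CPM, and Ms4a4c, a membrane protein of lymphocytes, with 90.6 ± 12.9 against 69.4 ± 11.9 CPM. Their edgeR adjusted p were 0.156, 0.951, 0.9998 and 0.9998. Iigp1 and Gbp2 were highest in Furin KO replicate 2, at 48.5 and 312 CPM, the library in which Ifit1, Ifit3 and Mx1 were lowest.

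The fold changes were also read against the promoter matches. Of the 13 antiviral genes with a match, 8 had a log2 fold change above 0, with a median of 0.10, and of the 10 genes with a window and no match, 6 did, with a median of 0.08. The promoters of Isg15 and Rsad2, printed above with their matches, belong to genes at -0.03 and -0.28, and that of Oas1a to a gene at 0.43. Ifit3 and Ifit3b, whose printed stretch is the same, peaked in the same library at levels per kilobase of 26.2 and 3.29 over all libraries. Dhx58, Ifi27l2a, Mx1, Mx2, Oas2, Parp14, Parp9, Rtp4, Usp18 and Zbp1 were not matched to a window.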

How the data were processed

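The authors deposited 1 table of raw counts, whole numbers per Ensembl gene ID, with 1 column per library, matched to samples by title. Per the submitters' processing notes, FastQC, Trim Galore, STAR and DESeq2 1.24.0 and the build GRCm38 were named. The sources used here do not name the counting program, the strand setting or the treatment of reads that match several genes. Symbols, positions and exon lengths came from GENCODE M21 on GRCm38, which matched 55394 of 55573 IDs.

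Genotype was tested on these counts with the two-sided quasi-likelihood test of edgeR 4.0.16 (R 4.3.3, limma 3.58.1), after filterByExpr and TMM scaling, with Benjamini-Hochberg adjustment over 12500 genes and a threshold of 0.05. Standard errors were taken from the fold change and its F statistic, and 95% intervals from these with the test's degrees of freedom. Single genes were also given an exact permutation test of the difference in mean log2(CPM + 1) over 56 arrangements. The script was tested on simulated data. Totals of 11308220 to 21040431 counts per library set the precision.

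The members and lists were chosen with earlier results of these data known. Values in every library were given for the 8 members of highest mean CPM, the 5 largest fold changes in each direction at a mean CPM of at least 1, and members with an unadjusted p under 0.05 or groups that do not overlap, 17 genes in all. Alternatives were RLE factors, library size alone, no filter beyond 1 count, CPM of at least 1 in 3 libraries, DESeq2 1.42.0, limma-voom, age or run as a factor, the 8-week libraries alone, and each library left out.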

Additional observations from a re-analysis of the deposited data

How the results depend on the processing

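Over all genes edgeR called 4, against 38 (25 higher, 13 lower) without a filter beyond 1 count, 14 (12 and 2) by DESeq2 and 12 (8 and 4) with the run of sample numbers as a factor, and 3 to 5 with 1 library left out. The count of antiviral genes called was 0 of 33 in all 17 alternative fits, with 1 to 5 at an unadjusted p under 0.05 and a lowest adjusted p of 0.153, without the filter. The number above 0 ran from 19 to 24 and the median log2 fold change from 0.02, without Furin KO replicate 4, to 0.13, without Furin KO replicate 5. Of 290 values of the 17 genes, among them that of Oas1a with Oas1g added, 282 kept their direction. The fits share most of their libraries, so this agreement is no independent support for any difference. With 1 library left out, the log2 fold change of Slfn1 ran from -0.14 (without Furin KO replicate 3) to 0.048 (without Furin KO replicate 5), that of Dtx3l from -0.048 (without Furin KO replicate 3) to 0.17 (without WT replicate 1), that of Ifi27l2a from -0.35 (without WT replicate 1) to 0.066 (without WT replicate 3) and that of Ifit1 from -0.25 (without Furin KO replicate 4) to 0.029 (without Furin KO replicate 2). The cause was not tested. The labels give no replicate numbers, so no fit with such a number as a block could be made; the fit with the run as a factor compares the genotypes within runs. Low counts limit Ifi44, Ifit3b and Oas1a.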
